A study of Mus musculus with 6 samples.

Results

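Cytokines that inflame tissue or steer T cells were examined in 2 populations of mouse dendritic cells, those with and those without the neutrophil surface protein Ly6G. The 9 genes were Il6, Tnf, Osm, Il10, Il12a, Il12b, Il23a, Inhba and Tgfb1. Every probe set of the array that the platform annotation pairs with exactly 1 gene symbol, that symbol being one of these, was taken, which gave 12 of 45101 probe sets, for 9 of 18193 genes. Bone marrow cells of C57BL/6 mice were cultured for 6 days with GM-CSF, a myeloid growth factor, at 10 ng/ml. From the cells positive for MHC class II and CD11c, a sorter took Ly6G+ DC and Ly6G- DC (3 arrays each, numbered 1 to 3). Both populations thus share the strain, the culture, the growth factor and 2 of the sorted surface proteins, and differ by label in Ly6G alone. No source used here gives the age or number of the mice, and nothing says that arrays of 1 group stem from different cultures. P-values therefore reflect array-to-array spread within these groups, which could be technical.

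Cytokines are secreted proteins that cells use to instruct one another, and a dendritic cell chooses the kind of T cell response partly through those it makes. Interleukin 12 and interleukin 23 are pairs of subunits that share the chain encoded by Il12b, which joins the product of Il12a in the former and that of Il23a in the latter. Interleukin 12 favours T helper 1 cells, whereas interleukin 6, interleukin 23 and transforming growth factor beta act on T helper 17 cells, and interleukin 10 restrains inflammation.

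Signals are linear intensities scaled by the authors, and differences are log2 fold changes of signal + 16, Ly6G+ over Ly6G-, with the standard error (SE) from limma. The added 16 understates the change of dim probe sets. Kept were probe sets above the 40th percentile of their array on 3 or more of all 6 arrays, counted without regard to group. Of the 12 cytokine probe sets 9 were kept, covering 7 genes; those of Il12a and Il23a and 1 of 2 for Inhba were not. Levels of different probe sets are not set against each other.

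The arrays also differed apart from the sort. The geometric mean signal of spiked-in hybridization controls was 1529 to 2039 on 3 arrays (Ly6G+ DC 1 and 3 and Ly6G- DC 1, the low side) and 6688 to 12842 on the other 3 (the high side). For Actb the signal at the 3' end was 1.17 to 1.49 times that at the 5' end on low-side arrays, and 3.98 to 6.85 times on high-side ones. The genes of CD11c (Itgax) and MHC class II (H2-Aa, H2-Ab1 and H2-Eb1) and Cd74, which encodes the MHC class II invariant chain, were above the 40th percentile on every array. All 5 had negative log2 fold changes, with a median of -0.57 and sums of 63247 to 133294 in Ly6G+ DC against 96190 to 235035 in Ly6G- DC, and H2-Ab1 and H2-Eb1 did not overlap between the groups. Of the neutrophil markers 11 of 12 were measured, and all 11 lay higher in Ly6G+ DC without overlap, with summed signals of 69214 to 93967 against 2343 to 13364. Of the dendritic cell markers 8 of 10 were measured, with summed signals of 41103 to 60053 in Ly6G+ DC, with 65474 to 115885 in Ly6G- DC, and 6 of the 8 were lower in Ly6G+ DC without overlap. Monocyte and macrophage markers (9 of 10 measured) summed to 29288 to 38419 against 22939 to 46097. Of these 9, 8 had positive log2 fold changes, with a median of 0.67, and Ccr2, Plac8 and Vcan were higher in Ly6G+ DC without overlap. Markers of mast cells, basophils and eosinophils (6 of 9) summed to 1817 to 3626 against 1219 to 1896, and 2 of the 6 were higher without overlap. T and NK lymphocyte markers (5 of 9) summed to 4476 to 5687 against 6248 to 8189, and B lymphocyte markers (5 of 6) to 475.0 to 619.3 against 553.4 to 971.5, with 2 and 1 of them lower without overlap. Over all 13262 genes with a kept probe set, 4.95% were higher and 7.86% lower without overlap. No measured marker was listed at 0. The part of these differences in the cytokine values was not tested, and in sorted bulk samples fewer cells of a type and less RNA per cell cannot be told apart.

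Il6, Tnf, Osm and Inhba, the last by its kept probe set alone, had 2.31 to 3.12 times the mean signal in Ly6G+ DC. Each was higher on all 3 Ly6G+ arrays than on any Ly6G- array. None of these passed the test across all probe sets. The other probe set of Inhba was dim and overlapped between the groups. Both probe sets of Tgfb1, both of Il12b and that of Il10 had lower means in Ly6G+ DC, and 1 of those for Il12b did not overlap between the groups. Limma, with Benjamini-Hochberg adjustment over the 28254 kept probe sets, called 0 cytokine probe sets at an adjusted p under 0.05, and 0 of all kept ones (0% in either direction), with a smallest adjusted p of 0.165 overall. At an unadjusted p under 0.05 there were 4 higher and 1 lower cytokine probe sets, where 2.75% and 2.87% of all kept probe sets were. The lower one, Il12b 1449497_at, had an unadjusted p of 0.0193 by limma, which became 0.0682 with arrays scaled to a common median and 0.0535 without Ly6G- DC 3. The same 5 did not overlap between groups, against 4.49% of kept probe sets higher and 7.24% lower. The genes were chosen with earlier results of these data known, so these counts are a description and no independent evidence.

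**Figure D1:**
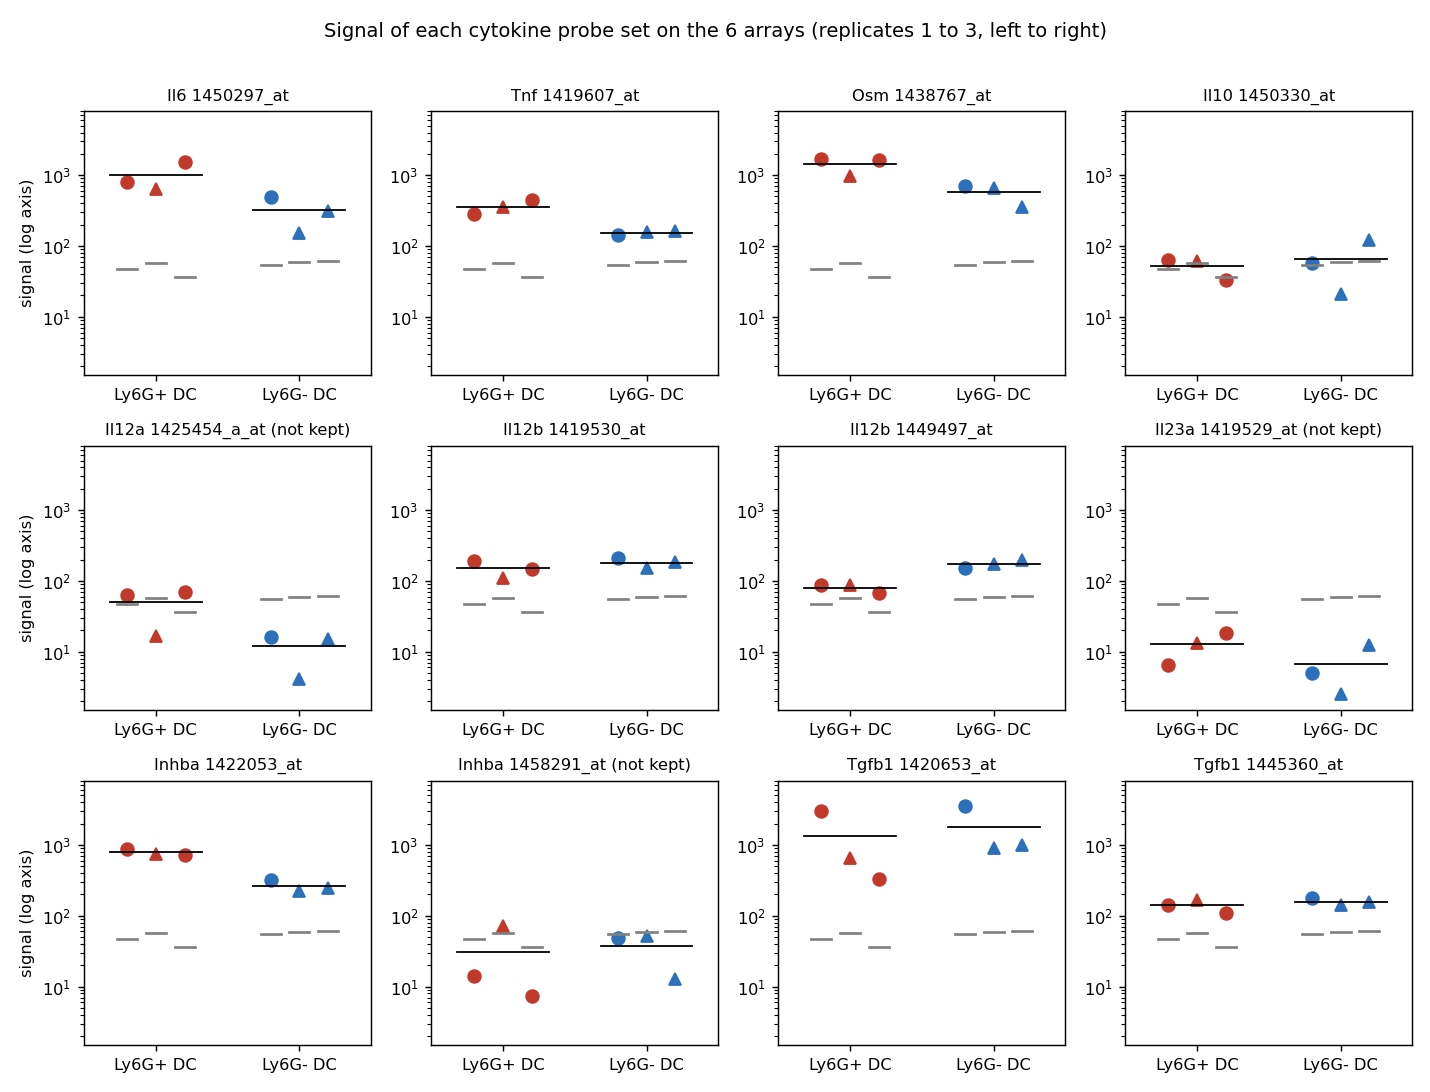
Signal (log axis) of the 12 cytokine probe sets on each array, with replicates 1 to 3 from left to right in each group. Black lines are group means, circles and triangles are arrays on the low and high side of the hybridization controls, and grey ticks mark each array's 40th percentile. Il6, Tnf, Osm and 1 probe set of Inhba lie higher on all Ly6G+ arrays, and 1 probe set of Il12b lies lower.

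Il6 encodes interleukin 6, which drives the acute phase response and, with transforming growth factor beta, T helper 17 differentiation. Its probe set (1450297_at) had signals of 798, 637 and 1558 on Ly6G+ DC 1 to 3 and 488, 155 and 316 on Ly6G- DC 1 to 3. The highest Ly6G- array, number 1, stayed below the lowest Ly6G+ array, number 2. Means were 998 ± 492 and 320 ± 167 (SD, n = 3), a ratio of 3.12. The log2 fold change was 1.62 ± 0.46 (SE; 95% interval 0.61 to 2.64), with an adjusted p of 0.836 by limma. It was 1.17 within the low side, where 2 Ly6G+ arrays meet 1 Ly6G- array, 1.46 within the high side, where 1 meets 2, and 1.31 ± 0.36 with the side as a block.

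Tnf encodes tumour necrosis factor, which activates endothelium and leukocytes early in inflammation. Signals of 1419607_at were 281, 351 and 442 in Ly6G+ DC, with 142, 158 and 164 in Ly6G- DC. The Ly6G- arrays lay close together, and the spread was mostly among the Ly6G+ arrays. Their means were 358 ± 81.2 and 155 ± 11.5 (SD, n = 3), with a log2 fold change of 1.11 ± 0.31 (SE; 95% interval 0.41 to 1.81) and an adjusted p of 0.836 by limma. The sides gave 1.22 (low) and 1.05 (high).

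Osm encodes oncostatin M, a relative of interleukin 6 that signals through the shared chain gp130 and acts on stromal cells, hepatocytes and bone. Its probe set (1438767_at) had signals of 1706, 961 and 1642 in Ly6G+ DC, with 714, 653 and 352 in Ly6G- DC. Ly6G+ DC 2, the only high-side array of its group, had the lowest signal among the Ly6G+ arrays, as it had for Il6. Means of 1436 ± 413 and 573 ± 194 (SD, n = 3) gave a log2 fold change of 1.32 ± 0.37 (SE; 95% interval 0.51 to 2.13), with an adjusted p of 0.836 by limma. Within the sides it was 1.21 (low) and 0.98 (high).

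Inhba encodes the beta A subunit of inhibins and activins, and its homodimer is activin A, a member of the transforming growth factor beta family. Signals of 1422053_at were 882, 754 and 716 in Ly6G+ DC, with 320, 222 and 249 in Ly6G- DC. Both groups were narrow here, and the gap between them was wider than the range within either. The means were 784 ± 87.0 and 264 ± 50.6 (SD, n = 3), a ratio of 2.97. Its log2 fold change of 1.52 ± 0.29 (SE; 95% interval 0.88 to 2.17) had an adjusted p of 0.468, the smallest among the cytokines by limma, and ranked 21 by p among the kept probe sets. The sides gave 1.27 and 1.62. With the array name in the titles as a block, which sets number 1 apart from numbers 2 and 3, Inhba passed with an adjusted p of 0.0461. It was then 1 of 21 probe sets called, all higher in Ly6G+ DC (0.0743% of those kept). A block for the hybridization control side gave an adjusted p of 0.332, and over all alternatives it ran from 0.0461 to 0.99999.

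The other probe set of Inhba (1458291_at) was dim and not kept. It had signals of 14.2, 71.9 and 7.43 in Ly6G+ DC, with 48.0, 51.5 and 12.9 in Ly6G- DC, and only Ly6G+ DC 2 lay above its array's 40th percentile. The groups overlapped, so the difference seen with 1422053_at was not seen with this probe set, whose signal was near or below that percentile.

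**Figure D2:**
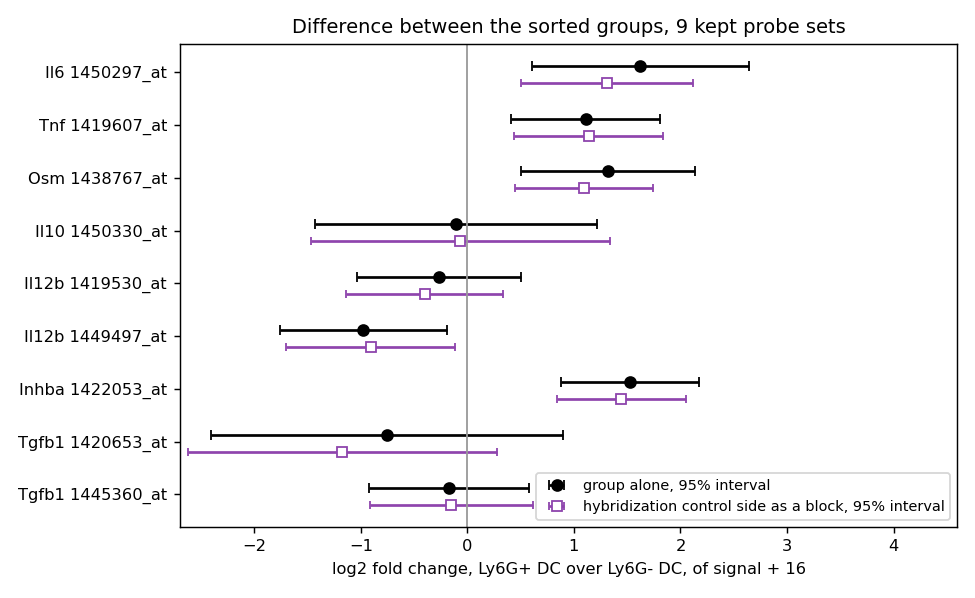
Log2 fold change of signal + 16, Ly6G+ DC over Ly6G- DC, for the 9 kept probe sets with 95% intervals from limma (unadjusted). Filled circles are the fit of the group alone, and open squares add the hybridization control side as a block. Il6, Tnf, Osm and Inhba lie between 1.09 and 1.62 in both fits.

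RefSeq promoter windows on GRCm38.p6, 250 bases before to 50 after a transcript start, were at hand for 6 of the 9 genes. Those of Il6, Tnf and Inhba are shown because these genes lay higher together in Ly6G+ DC, and that of Il12b because it did not. Osm, which also lay higher, had no window. Matches in the windows of Il12a and Tgfb1 are given below without the sequence. Whether any motif bears on the levels was not tested. Capitals mark exact matches on either strand. The patterns were GGGRNNYYCC (the NF-kB consensus), TGANTCA (the AP-1 site), TTGCNNAA (a C/EBP site), ACGTCA (part of the cAMP response element) and TATAAA. In them N is any base, R is A or G, and Y is C or T. The windows shown lie at chr5:30012864-30013163 (plus strand), chr17:35201958-35202257 (minus strand), chr13:16011601-16011900 (plus strand) and chr11:44399813-44400112 (plus strand), in the order Il6, Tnf, Inhba and Il12b.
Il6: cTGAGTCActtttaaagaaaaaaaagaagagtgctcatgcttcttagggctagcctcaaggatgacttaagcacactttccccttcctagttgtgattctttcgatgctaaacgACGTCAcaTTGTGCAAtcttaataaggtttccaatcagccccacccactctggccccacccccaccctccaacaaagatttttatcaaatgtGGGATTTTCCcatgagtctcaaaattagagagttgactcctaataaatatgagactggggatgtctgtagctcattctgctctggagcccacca
Tnf: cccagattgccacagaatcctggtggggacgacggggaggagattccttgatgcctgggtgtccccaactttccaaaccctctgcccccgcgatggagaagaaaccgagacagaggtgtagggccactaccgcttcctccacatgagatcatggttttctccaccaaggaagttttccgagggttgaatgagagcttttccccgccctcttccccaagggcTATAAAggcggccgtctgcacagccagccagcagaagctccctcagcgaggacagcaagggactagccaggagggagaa
Inhba: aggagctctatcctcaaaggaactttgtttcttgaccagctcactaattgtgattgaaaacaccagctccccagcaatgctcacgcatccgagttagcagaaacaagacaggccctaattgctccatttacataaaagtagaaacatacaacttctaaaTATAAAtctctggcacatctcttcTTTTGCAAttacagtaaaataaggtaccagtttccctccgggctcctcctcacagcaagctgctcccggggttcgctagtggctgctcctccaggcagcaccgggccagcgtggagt
Il12b: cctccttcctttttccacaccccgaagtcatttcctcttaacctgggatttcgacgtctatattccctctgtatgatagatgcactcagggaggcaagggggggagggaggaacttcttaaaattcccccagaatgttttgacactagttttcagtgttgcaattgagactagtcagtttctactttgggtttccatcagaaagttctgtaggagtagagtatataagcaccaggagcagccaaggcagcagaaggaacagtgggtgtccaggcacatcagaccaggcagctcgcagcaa

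The Il6 window held 1 match each to the NF-kB consensus, TGANTCA, TTGCNNAA and ACGTCA, and none to TATAAA. The NF-kB match ran from 44 to 35 bases before the start and the TTGCNNAA match from 128 to 121 before it, next to ACGTCA at 136 to 131. In the Tnf window, TATAAA lay 29 to 24 bases before the start and was the only match. Inhba had TATAAA at 91 to 86 and TTGCNNAA at 67 to 60 bases before the start. Il12b had no exact match to any of the 5 within its window, and neither had the 2 windows of Il12a. Near matches were not searched for, so these windows are not shown to lack binding sites of these kinds. The Tgfb1 window, of 77% G and C, held 1 NF-kB match. Of 32851 windows of this length, 8.46% held the NF-kB consensus, 7.81% TGANTCA, 10.8% TTGCNNAA, 7.51% ACGTCA and 13.6% TATAAA. A match describes these letters only, and none of the motifs overlapped another in the Il6, Tnf, Inhba or Il12b window.

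Il12b, the chain shared by interleukins 12 and 23, had 2 probe sets that the annotation ties to the same sequence record. Signals of 1449497_at were 87.9, 86.2 and 66.9 in Ly6G+ DC, with 151, 174 and 195 in Ly6G- DC. No Ly6G+ array reached any Ly6G- array, and the mean was 2.16 times as high in Ly6G- DC. Its log2 fold change was -0.98 ± 0.35 (SE; 95% interval -1.76 to -0.19), with an adjusted p of 0.836 by limma and -0.85 and -0.97 within the low and high sides. The other probe set, 1419530_at, had signals of 192, 111 and 147 in Ly6G+ DC, with 207, 150 and 185 in Ly6G- DC. Its groups overlapped, and its log2 fold change was -0.26 ± 0.35 (SE; 95% interval -1.04 to 0.51). The probe sets thus had the same sign, but the second interval includes 0, and with arrays scaled to a common median the second had 0.04.

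Il12a, the partner that makes interleukin 12, was dim. Signals of 1425454_a_at were 63.5, 16.9 and 70.7 in Ly6G+ DC, with 16.3, 4.16 and 15.1 in Ly6G- DC. Only Ly6G+ DC 1 and 3 lay above their array's 40th percentile, so the probe set was not kept. Group means lay below the mean 40th percentile in both populations on the log2 scale, and no fold is given. The groups did not overlap, but Ly6G+ DC 2 at 16.9 was barely above Ly6G- DC 1 at 16.3. Without a filter the unadjusted p was 0.050 and the adjusted p 0.818 by limma. Il23a, the partner in interleukin 23, was below the 40th percentile on all 6 arrays, with signals of 6.55, 13.3 and 18.1 in Ly6G+ DC, with 5.02, 2.54 and 12.5 in Ly6G- DC. Neither subunit gave a level that these arrays could compare.

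Il10 encodes interleukin 10, which dampens antigen presentation and cytokine release. Signals of 1450330_at were 62.8, 60.8 and 33.0 in Ly6G+ DC, with 57.5, 21.0 and 121 in Ly6G- DC. They straddled the 40th percentile, with 2 of 3 arrays above it in each group, and the Ly6G- arrays alone spanned the whole range. The log2 fold change was -0.11 ± 0.59 (SE; 95% interval -1.43 to 1.21; adjusted p = 0.978 by limma), an interval wide enough to hold differences of the size seen for Tnf in either direction. Its sign turned without Ly6G+ DC 3 (0.11) and without Ly6G- DC 3 (0.36).

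Tgfb1 encodes transforming growth factor beta 1, which is secreted in a latent form and, once active, supports regulatory T cells or, with interleukin 6, T helper 17 cells. Its brighter probe set (1420653_at) had signals of 2971, 644 and 335 in Ly6G+ DC, with 3536, 908 and 1000 in Ly6G- DC. Both arrays numbered 1 were far above the other 4, which ran from 335 to 1000. Within each group number 1 exceeded the mean of the others by 2.63 (Ly6G+) and 1.87 (Ly6G-) on the log2 scale. The arrays numbered 1 are also those whose titles carry another array name, and the part of the array name in this was not tested. The other probe set (1445360_at) had no such split, with signals of 144, 166 and 111 in Ly6G+ DC, with 178, 141 and 156 in Ly6G- DC.

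Across all arrays the log2 fold change of 1420653_at was -0.76 ± 0.74 (SE; 95% interval -2.41 to 0.90; adjusted p = 0.872 by limma). With the array name as a block it was -0.76 ± 0.28, with an unadjusted p of 0.0188 and an adjusted p of 0.398 by limma, where the unadjusted p without a block was 0.332. Number 1 alone gave -0.25, and numbers 2 and 3 together gave -1.01. Left-out arrays moved it from -1.63 (without Ly6G+ DC 1, with an unadjusted p of 0.0193 by limma) to -0.09 (without Ly6G+ DC 3). The value for 1445360_at was -0.17 ± 0.34 (SE; 95% interval -0.92 to 0.58). It changed to 0.13 with arrays scaled to a common median. A difference in Tgfb1 between the populations was therefore not resolved by these arrays.

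**Figure D3:**
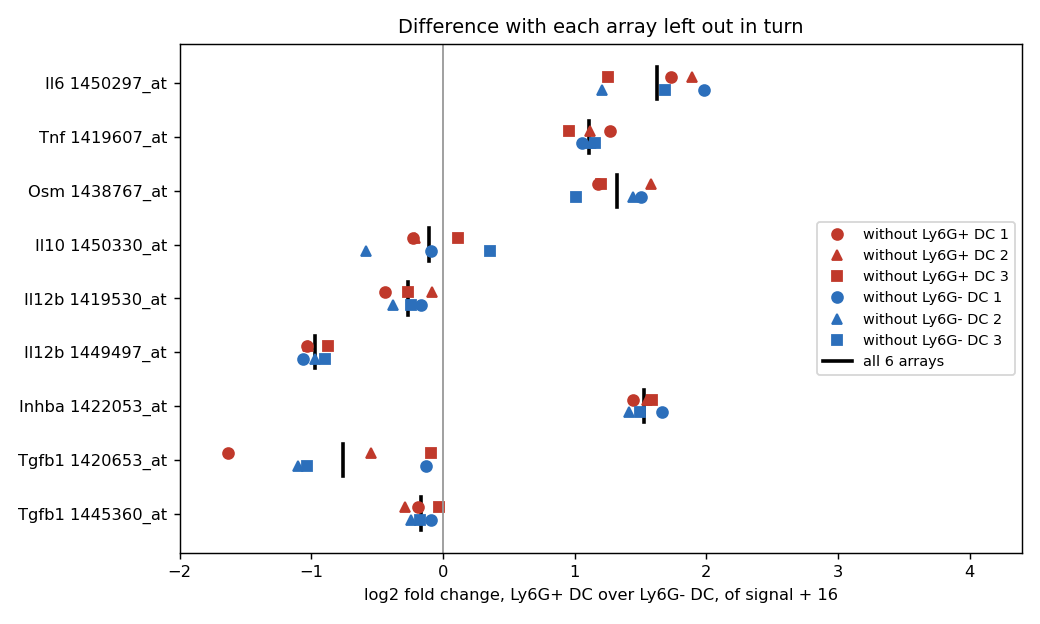
Log2 fold change of signal + 16, Ly6G+ DC over Ly6G- DC, with each of the 6 arrays left out in turn (symbols) and with all 6 (black lines), for the 9 kept probe sets. Values for Inhba stay between 1.42 and 1.66, and those for the brighter Tgfb1 probe set run from -1.63 to -0.09.

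The 4 cytokines that lay higher differed in how evenly they did so. With each array left out in turn, the log2 fold change ran from 1.42 to 1.66 for Inhba, 0.95 to 1.27 for Tnf, 1.01 to 1.58 for Osm and 1.20 to 1.98 for Il6. The lowest values came without Ly6G- DC 2 for Inhba and Il6, without Ly6G+ DC 3 for Tnf and without Ly6G- DC 3 for Osm. No value changed sign. The 1449497_at probe set of Il12b ran from -1.06 to -0.87. Scaling the arrays to a common median moved the median log2 fold change of all kept probe sets from -0.06 to 0.23. The 4 cytokines then had 1.94 (Il6), 1.42 (Tnf), 1.64 (Osm) and 1.84 (Inhba), and 1449497_at had -0.69.

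Among 13262 genes with a kept probe set, those whose log2 signal followed a cytokine most closely over the 6 arrays were looked up. Each such likeness rests on 6 arrays that share the group difference and the hybridization control sides, and it describes these arrays only. For Osm the closest were Nceh1, Sirpb1a and Clec4e, with Pearson's r of 0.995, 0.994 and 0.988, and 110 genes had an r above 0.95. For Inhba they were AW495222, Mrpl37 and Cxcl10 (0.995, 0.985 and 0.984), with 17 genes above 0.95. Il6 was closest to Emc4, Eif3a and Ccdc127 (0.996, 0.996 and 0.994), and Tnf to 4930453N24Rik, Cr1l and Gmnn (0.987, 0.985 and 0.983). The closest for Il10 were Kif24, Myo6 and Ppp1r1c (0.993, 0.990 and 0.983), and for Il12b, by 1419530_at, Ppp1r35, Chpf and Mprip (0.984, 0.983 and 0.981). Tgfb1 was closest to Pacs2, Mlf2 and Itga5 (0.994, 0.993 and 0.991), with 111 genes above 0.95. The 4 cytokines that lay higher shared none of these 3 closest genes with one another.

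Other genes of these pathways were described through lists, each gene by its brightest kept probe set. Over all 13262 genes the median log2 fold change was -0.07, 44.3% were positive, and the share free of overlap was 4.95% higher and 7.86% lower. Limma called 0 genes on any list, as it did over all genes (0%). At an unadjusted p under 0.05, 2.99% of all genes were higher and 3.19% lower. List medians given below come from the fit of the group alone. Once the fit also held the array side, the median over all genes was -0.03. Receptors then had 0.07, family relatives -0.12, processing genes 0.27 and signal transducers -0.09. Feedback inhibitors had -0.21 and transcription factors -0.26. The median of mRNA stability factors turned from -0.03 to 0.06. List medians thus depended in part on whether the side was in the fit.

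Receptors for the cytokines had a median of 0.15, with 12 of 16 measured genes positive, 0 higher and 1 lower at an unadjusted p under 0.05. Osmr, the receptor chain specific to oncostatin M, had signals of 25.4 to 43.5 in Ly6G+ DC, with 73.4 to 147 in Ly6G- DC, so it lay opposite to its ligand, at a dim level. Because the Ly6G+ arrays lay below their mean 40th percentile, the difference is a bound, at least 1.80-fold higher in Ly6G- DC. That bound concerns dim signal alone and not the spread between arrays. The log2 fold change of Osmr was -1.12 ± 0.49 (SE; 95% interval -2.20 to -0.04), with an adjusted p of 0.836 by limma. Tgfbr2, which binds transforming growth factor beta, had 1401 to 1778 against 832 to 1167, with a log2 fold change of 0.63 ± 0.28 (SE). The groups overlapped for neither gene. The brightest receptors, Tnfrsf1b for tumour necrosis factor and Tgfbr1, had 0.19 ± 0.34 and -0.18 ± 0.28 and overlapped. Il6ra, the interleukin 6 receptor, had 1.12 ± 0.52, whereas Il6st, the gene of gp130, lay the other way with -0.61 ± 0.34 (SE). Tgfbr3 had 1.13 ± 0.55. Il6ra, Il6st and Tgfbr3 were chosen after their values were seen, and each overlapped as well.

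Family relatives and partner subunits had a median of -0.31 over 12 genes, 5 of them positive, and 0 had groups that did not overlap. Ebi3, a subunit of interleukin 27, and Ltb, lymphotoxin beta, were the brightest, with log2 fold changes of 0.06 ± 0.27 and 0.50 ± 0.38 (SE). Genes of processing, latency and extracellular inhibition had a median of 0.04 over 11 genes, 6 of them positive, again with 0 free of overlap. Thbs1, thrombospondin 1, which can activate latent transforming growth factor beta, had signals of 5973 to 13609 in Ly6G+ DC, with 926 to 11103 in Ly6G- DC. That is a log2 fold change of 1.86 ± 0.76 (SE), with an unadjusted p of 0.0333 by limma. It was 0.28 within the low side and 2.07 within the high side, and 1.17 ± 0.41 with the side as a block. Adam10, a membrane protease, had 0.38 ± 0.41.

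Signal transducers had a median of -0.25 over 12 genes, 5 of them positive. Jak2, a kinase of several cytokine receptors, did not overlap, with 3099 to 5152 in Ly6G+ DC against 5240 to 7290 in Ly6G- DC. Its log2 fold change was -0.61 ± 0.33 (SE; 95% interval -1.34 to 0.12). At an unadjusted p under 0.05 by limma, 1 transducer was higher and 0 lower, where 2.99% and 3.19% of all genes were. The higher one was Jak1, a related kinase, with 0.81 ± 0.36 (SE) and groups that overlapped. Tab2, an adaptor in tumour necrosis factor signalling, had -0.29 ± 0.41. Feedback inhibitors had a median of -0.20 over 13 genes, 5 of them positive, and all overlapped. Their brightest members, Nfkbia, the inhibitor of NF-kB, and Socs3, which limits interleukin 6 signalling, had -0.70 ± 0.57 and 0.28 ± 0.53. Factors that set the stability of cytokine mRNA had a median of -0.03 over 12 genes, 5 of them positive. Dusp1, a phosphatase of stress kinases, had 2413 to 3894 against 1863 to 2292 with no overlap, and a log2 fold change of 0.64 ± 0.31. Zfp36, tristetraprolin, which binds AU-rich elements of the Tnf message, had 0.13 ± 0.48, and its relative Zfp36l1 had -0.35 ± 0.42.

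Of 19 transcription factors of cytokine genes, 4 were higher and 3 lower without overlap, where 4.95% and 7.86% of all genes were. That is a larger share than on the other lists, and 9 were positive, with a median of -0.21. At an unadjusted p under 0.05 by limma there were 5 higher and 3 lower, where 2.99% and 3.19% of all genes were. The lists were chosen with earlier results of these data known, so these counts are a description only. Egr1, an immediate early factor, had signals of 8970 to 12594 in Ly6G+ DC, with 2997 to 3648 in Ly6G- DC. Its log2 fold change of 1.66 ± 0.31 (SE) had an adjusted p of 0.414 by limma, or 0.0305 when the array name was a block. Fos, a component of AP-1, had 3192 to 5775 against 1593 to 2249 and a log2 fold change of 1.11 ± 0.33. Cebpb, a regulator of Il6 first described as NF-IL6, had 7584 to 11300 against 3668 to 7102, with a log2 fold change of 0.77 ± 0.36. Irf8, which acts on Il12b and is needed for some dendritic cell lineages, had 2453 to 3198 in Ly6G+ DC against 4088 to 8023 in Ly6G- DC, a log2 fold change of -1.01 ± 0.34. Batf3, its partner in those lineages and also on the list of dendritic cell markers, had -0.93 ± 0.36. None of these 5 overlapped between groups. Neutrophil and dendritic cell markers moved with the same groups, and their part in these values was not tested.

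**Figure D4:**
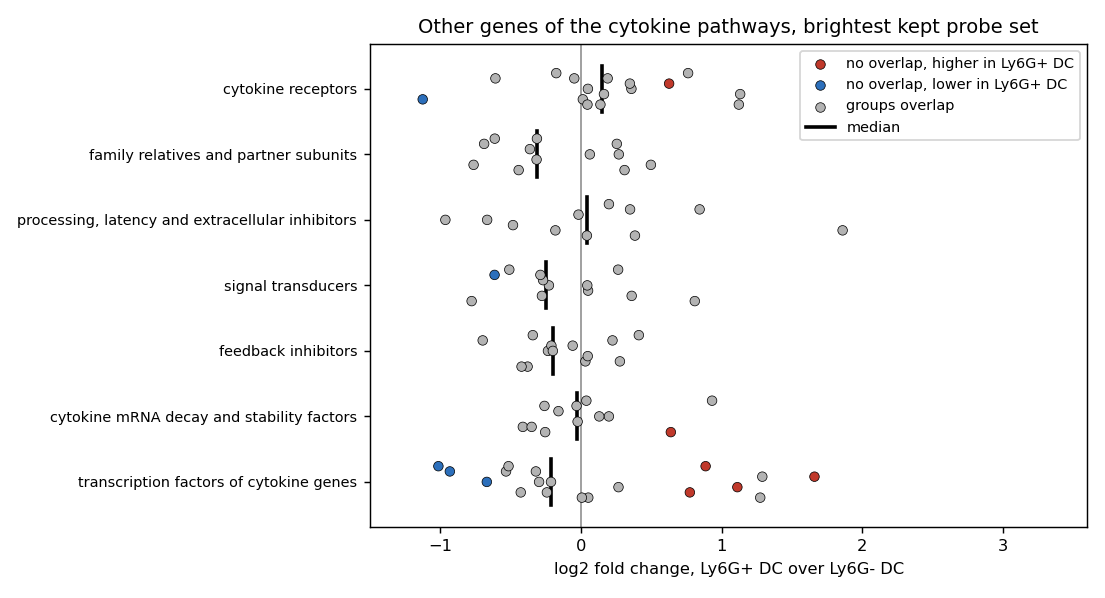
Log2 fold change, Ly6G+ DC over Ly6G- DC, of other genes of the cytokine pathways, 1 point per gene by its brightest kept probe set, with the list's median as a black line. Red and blue points are genes whose groups did not overlap, and they are most frequent among the transcription factors (7 of 19). Of all genes, 4.95% were higher and 7.86% lower without overlap.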

How the data were processed

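Biotin-labelled RNA, made from 200 ng of total RNA with an oligo-dT primer, was hybridized to 1 Affymetrix mouse array per sample. The deposited values are linear signal intensities per probe set. Per the submitters' processing notes, the tools were MAS5, GCOS and Affymetrix Expression Console 2.0, with no role or settings stated. In the deposited intensities each array's mean after trimming 2% at either end was 250.0, a scaling that was kept.

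Probe sets were named through the platform annotation (34958 of 45101 had 1 symbol), and all 9 genes matched a RefSeq gene table by Entrez identifier. Log2(signal + 16) was compared between groups with limma 3.58.1 in R 4.3.3 (lmFit, eBayes with an intensity trend), with Benjamini-Hochberg adjustment over the 28254 kept probe sets and a threshold of 0.05. The 64 control probe sets were left out. The fit used the group alone and was tested on simulated data. The number of arrays limits the precision. Arrays were put on 2 sides by the widest gap between their mean log2 hybridization control signals.

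Named were all cytokine probe sets; per pathway list up to 4 genes with the largest change among those whose groups did not overlap, plus the 2 brightest; and the 3 genes most like each cytokine. Members, lists and alternatives were chosen with earlier results of these data known. Where the dimmer group's mean lay under the mean 40th percentile of its arrays, the fold is a bound against the higher of the probe set's own value and that percentile on each array.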

Additional observations from a re-analysis of the deposited data

How the results depend on the processing

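All 4 higher cytokines and the 1449497_at probe set of Il12b kept their direction with pseudocounts of 1 and 64, a common median, quantile normalization, both other filters, no trend, a robust variance model, all 3 blocks and each left-out array, where they were tested. Inhba passed with the array name as a block (log2 fold change 1.52), which made 1 cytokine call among 21 of all kept probe sets. The replicate block gave 19 calls, none of a cytokine. Each of these 2 blocks called 1 transcription factor, Egr1. Left-out arrays gave 0 to 1 calls over all kept probe sets and 0 among the cytokines. At an unadjusted p under 0.05 by limma, Il12b 1449497_at was lost with a common median and without Ly6G- DC 3, and Tgfb1 1420653_at was gained with the replicate block (0.0195), the array name block and without Ly6G+ DC 1. Values that changed sign were those of Il10, with 0.12 under quantile normalization and 0.13 with a common median (left-out arrays: -0.59 to 0.36), Il12b 1419530_at with 0.040 and Tgfb1 1445360_at with 0.13, both with a common median, and Inhba 1458291_at with 0.044 without Ly6G+ DC 3. The cause was not tested. Deviations of same-numbered arrays from their group means correlated at 0.52, 0.26 and -0.04 for numbers 1, 2 and 3. The arrays numbered 1 share an array name that the others lack, and those numbered 3 lie on opposite hybridization control sides. These correlations therefore cannot decide whether the numbers pair the arrays, and pairing by number was not established. Ly6G+ DC 2 correlated best with Ly6G- DC 3 (0.32), both on the high side, and Ly6G+ DC 3 with Ly6G- DC 2 (0.07). Dim signal limits Il10, Il12a, Il23a and the second Inhba probe set.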
